A study of Homo sapiens with 6 samples.

Results

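The core hepatocyte transcription factors are the DNA-binding proteins that together set and hold the expression programme of the liver cell. The set followed here has 8 genes: HNF4A, FOXA1, FOXA2, FOXA3, CEBPA, CEBPB, ONECUT1 and PROX1. Each gene was represented by the transcript cluster (the group of array probe sets that together cover a gene) that carried its symbol alone and had the highest mean over all arrays. A cluster was found for 7 of the 8, among 15949 genes with a single-symbol cluster and 18708 clusters in all, and each of the 7 had exactly 1 such cluster. No cluster with HNF4A as its single symbol was found, so HNF4A is not analysed here.

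The cells were PLC/PRF/5, an established human hepatocellular carcinoma line, so all values describe 1 tumour cell line. A control group of 3 arrays received an siRNA against an irrelevant target, and a knockdown group of 3 arrays received siRNAs against SLU7, a splicing factor of the second catalytic step. Both groups were transfected with the same lipid reagent and harvested 48 h later, and the total RNA of each sample was read on its own Affymetrix Human Exon 1.0 ST array. The design text names a single control siRNA, but the sample labels number it (and the SLU7 siRNA) from 1 to 3, which was taken here as the replicate number. If the numbers instead mark different siRNAs, the spread within a group also holds differences between siRNAs. The labels do not say whether the SLU7 siRNAs were mixed or whether each replicate was its own culture, so the p-values speak only of how far these arrays scatter, and that scatter may be technical.

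In the liver these factors form a network in which each binds the control regions of several others and of hepatocyte genes. FOXA1, FOXA2 and FOXA3 are forkhead proteins that can open closed chromatin. CEBPA and CEBPB are leucine zipper proteins, the first linked to metabolism and growth arrest and the second to the acute phase response, and both genes lack introns. ONECUT1 (HNF6) acts in hepatocyte and bile duct development, and HNF4A is a nuclear receptor required for hepatocyte differentiation. PROX1 is a homeobox protein of the early liver bud that can repress HNF4A and other nuclear receptors, and it also specifies lymphatic endothelium.

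The deposited values summarise each transcript cluster in 1 value and cannot tell alternative promoters or exons apart. The sequence context of the members is therefore given from their annotated starts. RefSeq windows on GRCh38.p14 were found for 5 of the 7 measured members (6 windows, since CEBPB has 2 starts). FOXA2 and PROX1 had no entry. The 250 bases before the start are shown 5′ to 3′ on the strand of the gene. The first 3 are shown because they hold the letters TATAAA (the core of a TATA box, in capitals) close before the start. Of these, FOXA3 and CEBPB had groups of arrays that did not overlap, while the groups of CEBPA overlapped and differed by -0.0049 log2 units. A relation between TATAAA and the differences between groups was not tested. FOXA1 is shown as the only member with a positive difference, and because it holds a forkhead core, TGTTTNC, read on the opposite strand and in capitals.
FOXA3, chr19:45864076-45864325, plus strand: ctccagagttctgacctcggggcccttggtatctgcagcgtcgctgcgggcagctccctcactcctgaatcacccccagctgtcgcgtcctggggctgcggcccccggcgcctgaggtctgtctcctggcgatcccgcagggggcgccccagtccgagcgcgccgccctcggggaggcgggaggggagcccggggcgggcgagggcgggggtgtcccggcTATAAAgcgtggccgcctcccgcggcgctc
CEBPB, downstream start, chr20:50190580-50190829, plus strand: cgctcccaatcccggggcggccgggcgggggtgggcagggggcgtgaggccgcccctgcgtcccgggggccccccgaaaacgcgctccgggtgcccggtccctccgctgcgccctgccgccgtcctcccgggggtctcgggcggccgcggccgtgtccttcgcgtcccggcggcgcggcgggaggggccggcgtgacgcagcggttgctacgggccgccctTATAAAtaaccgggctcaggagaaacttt
CEBPA, chr19:33302535-33302784, minus strand: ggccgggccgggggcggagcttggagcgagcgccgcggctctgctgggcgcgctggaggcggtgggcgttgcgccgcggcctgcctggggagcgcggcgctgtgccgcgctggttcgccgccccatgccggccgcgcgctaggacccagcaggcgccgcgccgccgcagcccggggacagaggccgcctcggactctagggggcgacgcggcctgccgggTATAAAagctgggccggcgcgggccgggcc
FOXA1, chr14:37595250-37595499, minus strand: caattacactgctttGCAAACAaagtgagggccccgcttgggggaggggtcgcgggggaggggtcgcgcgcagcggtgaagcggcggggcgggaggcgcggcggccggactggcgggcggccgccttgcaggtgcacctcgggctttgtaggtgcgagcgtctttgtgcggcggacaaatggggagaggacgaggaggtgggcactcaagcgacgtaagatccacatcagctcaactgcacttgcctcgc
TATAAA was searched on both strands and occurred in 3 of the 6 member windows, against 10.7% of 35116 windows of all genes. In CEBPA and FOXA3 its first base lay 30 bases before the start, and in CEBPB 29 bases. Across all genes, TATAAA on the gene's strand with its first base 20 to 40 bases before the start was found in 2.30% of windows. The forkhead core TGTTTNC (both strands) occurred in 1 member window, that of FOXA1, 235 to 229 bases before the start, against 15.5% of all windows. CCAAT (both strands) occurred in 2 member windows, 1 of CEBPB and that of ONECUT1, against 32.0%. A C/EBP site, TTNNGCAA, and an HNF6 core, ATTGAT, occurred in no member window (9.05% and 5.58% of all windows, both strands). TGTTTNC and TTNNGCAA share no fixed overlap, and a match is only a match of letters. The members' windows were 67.2% to 81.2% G and C, above the median of 58.0% over all windows.

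SLU7 itself was lower in each knockdown array than in each control array. Its log2 value was 7.89, 7.01 and 7.24 in control replicates 1 to 3 and 5.84, 5.58 and 6.21 in SLU7 replicates 1 to 3. The difference of -1.51 ± 0.31 (SE) log2 units left 35.2% of the control level, with a limma adjusted p of 0.0783 over all clusters. Array medians lay between 6.61 and 6.63 log2 units and lower quartiles between 4.86 and 4.98. On the first principal component (36.6% of the variance) 1 array of each group, control replicate 2 and SLU7 replicate 1, lay far from the remaining 4, so results are also given within each of these sets. Over all clusters 25 rose and 56 fell at a limma adjusted p under 0.05, and without any 1 array, or without both arrays that stand apart, none did. Of 10 hepatocyte markers, ALB (albumin, 2.84 to 4.52 over the 6 arrays) and SERPINA1 lay below the arrays' lower quartiles by their mean, while APOA1 (10.3 to 11.7) and the other 7 lay above. A lower level in bulk RNA can mean fewer cells of a kind or less RNA per cell, and these cannot be told apart here.

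None of the 7 measured factors passed the limma test over all clusters, against 0.433% of all clusters that did. At an unadjusted p under 0.05 there was 1, PROX1, against 13.1% of all clusters in either direction and 6.54% in the lower direction. The log2 differences (SLU7 siRNA minus control siRNA) ran from -0.95 in PROX1 to 0.41 in FOXA1, with 6 of 7 below 0 and a median of -0.15. Over all 15949 named genes 50.3% were below 0 and the median was -0.0034. Between control replicate 2 and SLU7 replicate 1 alone, where no error can be given, the members' median was -0.09, and over the remaining 4 arrays it was -0.22. In PROX1, FOXA3 and CEBPB the arrays of the 2 groups did not overlap, each with lower values after SLU7 siRNA, which makes 3 of 7 members against 9.21% of all clusters in that direction and 18.9% in either. No member had groups apart in the other direction (9.64% of all clusters).

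**Figure D1:**
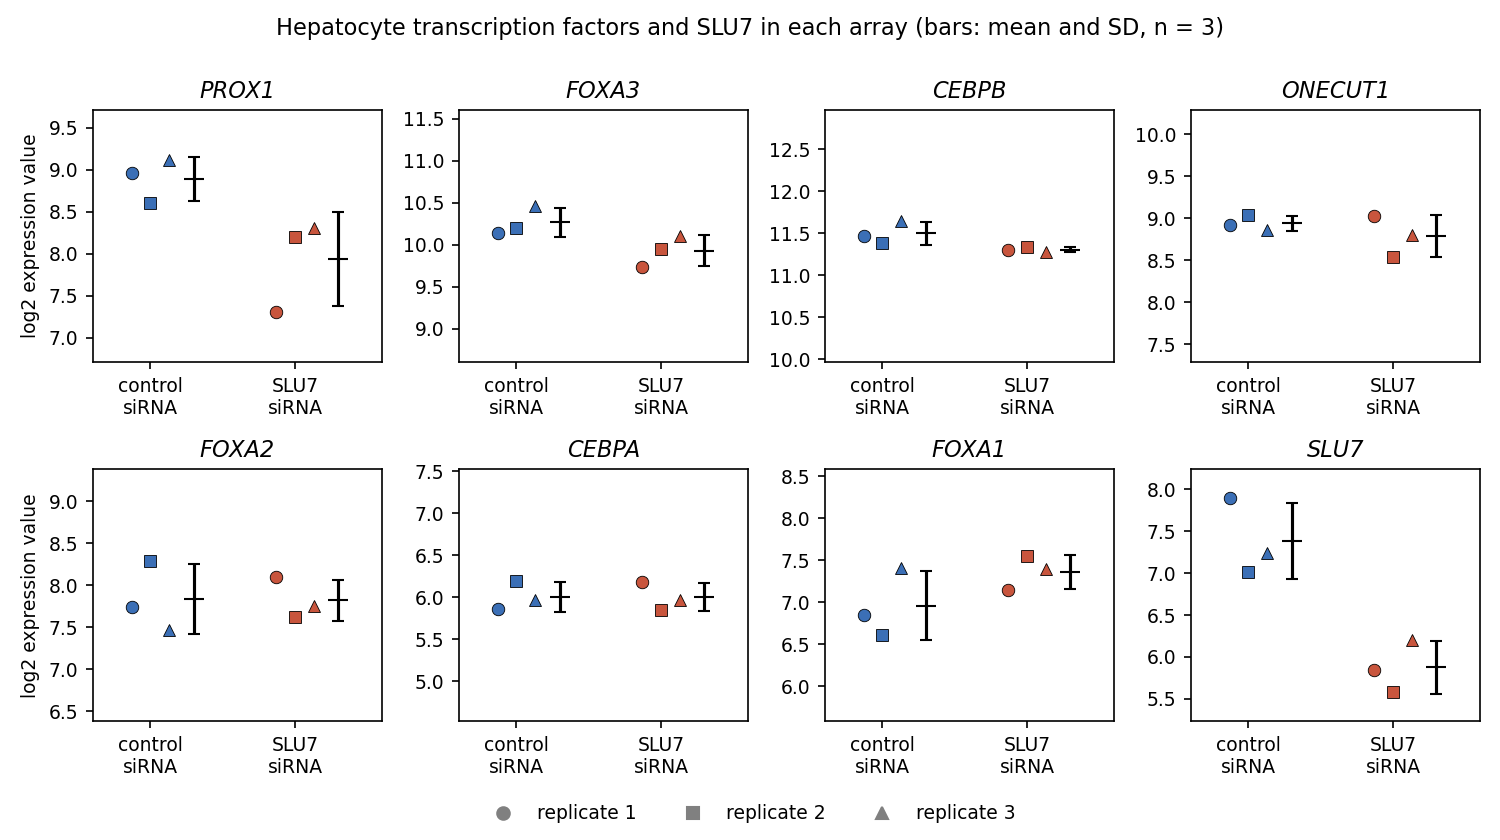
Log2 expression value of each factor and of SLU7 (vertical axis, each panel spanning 3 log2 units around its own mid-point) in the control siRNA (blue) and SLU7 siRNA (red) arrays, with marker shape for the replicate number and black bars for mean and SD (n = 3). PROX1, FOXA3, CEBPB and SLU7 have no overlap between groups, and FOXA2 and CEBPA have almost equal means.

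PROX1, the homeobox repressor, had the largest difference of the set. Its log2 value was 8.96 in control replicate 1, 8.60 in control replicate 2 and 9.12 in control replicate 3. It was 7.30 in SLU7 replicate 1, 8.20 in SLU7 replicate 2 and 8.31 in SLU7 replicate 3. All knockdown arrays lay below all control arrays, and SLU7 replicate 1 lay well below the rest of its group. The means were 8.89 ± 0.27 (SD, n = 3) and 7.94 ± 0.55 (SD, n = 3), a difference of -0.95 ± 0.33 (SE) log2 units, or 1.94-fold lower (95% interval 1.15 to 3.28). The limma p was 0.0195 and the adjusted p over all clusters 0.258. The difference was -1.30 between SLU7 replicate 1 and control replicate 2, and -0.78 over the remaining 4 arrays. Without SLU7 replicate 1 it was -0.64.

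PROX1 also marks lymphatic endothelium, so endothelial markers are given beside it. The 7 measured of 8 had differences from -0.49 to -0.07, with 7 of 7 below 0, a median of -0.24 and none called by limma. Their summed level (log2 of the sum of linear values) was 9.02 to 9.31 with control siRNA and 8.64 to 9.28 with SLU7 siRNA, so the groups overlapped. LYVE1, the hyaluronan receptor of lymphatic vessels, stood at 2.40 to 3.82 in the 6 arrays, below their lower quartiles, and PDPN (podoplanin) had a mean below them too. CDH5, the endothelial cadherin, was the only marker whose groups did not overlap (-0.29 ± 0.26, SE), 1 of 7 beside 18.9% of all clusters in either direction. The cells were a tumour cell line, so these markers are read as levels in that line. Their relation to the PROX1 value was not tested.

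The 3 forkhead genes had differences of either sign, and none passed the test. FOXA3 had log2 values of 10.13, 10.20 and 10.46 in control replicates 1 to 3 and 9.74, 9.95 and 10.10 in SLU7 replicates 1 to 3. The groups did not overlap, but the highest knockdown array and the lowest control array nearly touched. The difference was -0.34 ± 0.25 (SE) log2 units, or 1.26-fold lower, with a 95% interval from -0.90 to 0.23 and a limma adjusted p of 0.660. FOXA1 had values of 6.85, 6.61 and 7.41 with control siRNA and 7.14, 7.55 and 7.39 with SLU7 siRNA. Its groups overlapped, since control replicate 3 was higher than SLU7 replicates 1 and 3. The difference was 0.41 ± 0.29 (SE), or 1.32-fold higher, with an interval from -0.26 to 1.07 and a limma adjusted p of 0.652.

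FOXA2, the forkhead factor of early endoderm, had values of 7.74, 8.29 and 7.47 with control siRNA and 8.09, 7.62 and 7.75 with SLU7 siRNA. The groups overlapped fully, with the highest value in control replicate 2 and the next in SLU7 replicate 1. The difference was -0.012 ± 0.30 (SE), with an interval from -0.69 to 0.66, so a change of up to 1.61-fold down or 1.59-fold up lies within it (limma adjusted p = 0.997). Its sign turned to positive with array weights, without the arrays that stand apart and without control replicate 2, SLU7 replicate 2 or SLU7 replicate 3.

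Whether the relatives responded differently was examined by subtracting their log2 values within each array, in 4 pairs. FOXA3 minus FOXA1 ran from 3.06 to 3.58 in the control arrays and from 2.40 to 2.71 in the knockdown arrays, without overlap. The response of FOXA3 was thus lower than that of FOXA1 by 0.74 ± 0.18 (SE) log2 units, with an exact two-sided permutation p of 0.1, the smallest that 3 arrays against 3 allow, and 0.4 after adjustment over the 4 pairs. For FOXA2 minus FOXA1 the response difference was -0.42 ± 0.53 (exact permutation p = 0.7), for FOXA3 minus FOXA2 it was -0.33 ± 0.39 (p = 0.4, exact permutation test), and in both the groups overlapped. CEBPB minus CEBPA gave -0.19 ± 0.19 (exact permutation p = 0.4), also with overlap. No pair passed, and with 3 arrays against 3 this exact test cannot go below 0.1 whatever the size of a difference.

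CEBPB, the acute phase member of its family, had log2 values of 11.47, 11.38 and 11.65 with control siRNA and 11.30, 11.34 and 11.28 with SLU7 siRNA. Every knockdown array lay below every control array, and the knockdown arrays spanned only 0.056 log2 units against 0.27 in the controls. The difference was small, -0.19 ± 0.23 (SE) log2 units or 1.14-fold lower, with an interval from -0.73 to 0.34 and a limma adjusted p of 0.831. CEBPA, the metabolic member, had values of 5.86, 6.20 and 5.96 with control siRNA and 6.18, 5.85 and 5.97 with SLU7 siRNA. Both groups covered nearly the same range. Its difference was -0.0049 ± 0.25 (SE), with an interval from -0.57 to 0.56, or 1.48-fold down to 1.47-fold up (limma adjusted p = 0.999). The difference was far smaller than its error, and its sign turned with median centring, without the arrays that stand apart and without control replicate 2, SLU7 replicate 2 or SLU7 replicate 3.

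ONECUT1, the cut-homeobox factor, had values of 8.92, 9.04 and 8.85 with control siRNA and 9.03, 8.53 and 8.80 with SLU7 siRNA. SLU7 replicate 1 lay among the controls, and the other knockdown arrays lay below them. The difference was -0.15 ± 0.25 (SE) log2 units, with an interval from -0.72 to 0.42 and a limma adjusted p of 0.892. It was -0.0064 between SLU7 replicate 1 and control replicate 2, and -0.22 over the remaining 4 arrays.

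**Figure D2:**
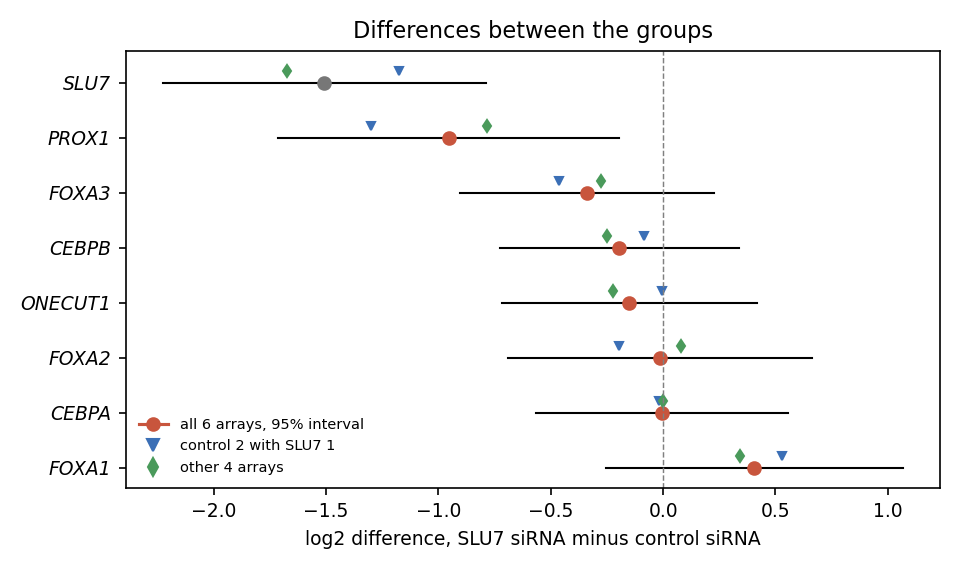
Log2 difference between SLU7 siRNA and control siRNA arrays (horizontal axis) for SLU7 (grey point) and each factor (red points), with 95% intervals from limma (black lines). Blue triangles give the difference between control replicate 2 and SLU7 replicate 1, and green diamonds that within the other 4 arrays; the intervals of PROX1 and SLU7 lie below 0, and those of the other 6 genes include it.

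The members fell into different patterns over the 6 arrays. FOXA2, CEBPA and ONECUT1 were higher in control replicate 2 and in SLU7 replicate 1 than in any of the other 4 arrays, which held for 3 of 7 members and for 21.5% of all clusters. FOXA2 was 8.09 and 8.29 in those arrays and 7.47 to 7.75 in the others. CEBPA was 6.18 and 6.20 against 5.85 to 5.97, and ONECUT1 was 9.03 and 9.04 against 8.53 to 8.92. No member was lower in both of those arrays than in the other 4 (12.2% of all clusters). The zinc finger factor GATA4, chosen after its values were seen, had the opposite pattern, at 4.98 and 5.48 in those arrays and 6.32 to 7.96 in the others. These sets of arrays were read off the data, so the values are a description. The part of that array split in the members' differences was not tested beyond the values within each set.

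**Figure D3:**
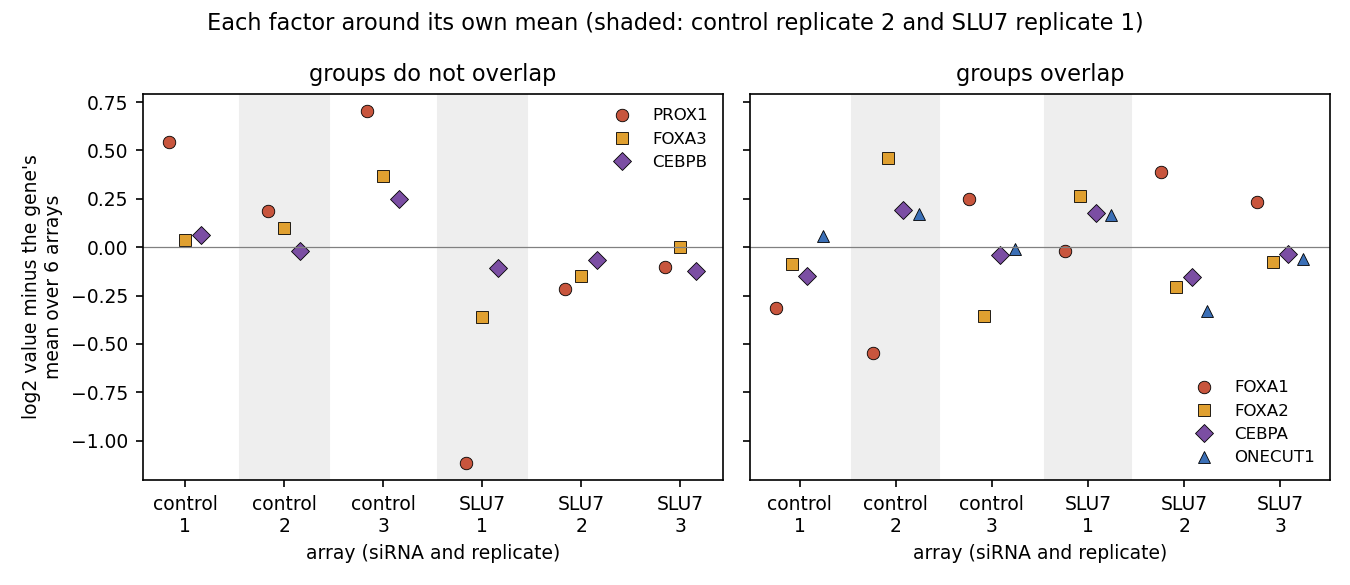
Log2 value of each factor minus its own mean over the 6 arrays (vertical axis) in each array (horizontal axis), with shading on control replicate 2 and SLU7 replicate 1. On the left are the 3 factors whose siRNA groups do not overlap, and on the right FOXA2, CEBPA and ONECUT1 are highest in the shaded arrays while FOXA1 is lowest in control replicate 2.

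Over the 6 arrays PROX1 ran most closely with FOXA3 (Pearson r = 0.917) and with CEBPB (r = 0.775), and FOXA3 with CEBPB (r = 0.821). FOXA2 ran with CEBPA (r = 0.847), and CEBPA with ONECUT1 (r = 0.750), while FOXA1 ran against FOXA2 (r = -0.747) and ONECUT1 (r = -0.769). These are descriptions over 6 arrays that share the siRNA groups and the array split. Among 12217 other genes above the lower quartile, the closest to PROX1 were TMEM106B (Pearson r = 0.999 over 6 arrays) and NT5DC1 (r = 0.996). The closest to FOXA3 were MAOA (monoamine oxidase A, r = 0.992) and AHCY (adenosylhomocysteinase, r = 0.988). For CEBPB they were MAN2A1 (r = 0.995) and ELOVL6, a fatty acid elongase (r = 0.993), and for FOXA1 they were POLR2G (r = 0.996) and RITA1 (r = 0.993). FOXA2 was closest to LAMP3 (r = 0.999) and MAOB (r = 0.998), CEBPA to CTAGE6 (r = 0.998) and BTG3 (r = 0.996), and ONECUT1 to TLE2 (r = 0.984) and BTK (r = 0.981). With so many genes and 6 points, values this high can be reached by several genes: 13 exceeded 0.99 for FOXA2, 11 for PROX1, 8 for CEBPA, 3 for FOXA1, 2 for CEBPB, 1 for FOXA3 and 0 for ONECUT1.

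Close relatives of the members were examined next, and none of the 6 measured of 8 passed limma. CEBPG, which pairs with other C/EBP proteins, had 8.70, 8.53 and 9.07 with control siRNA and 7.34, 8.02 and 7.46 with SLU7 siRNA. Its groups lay apart, with a difference of -1.16 ± 0.29 (SE) log2 units (limma adjusted p = 0.123). DDIT3 (CHOP), a stress-induced C/EBP relative that blocks DNA binding by its partners, had 6.80, 6.72 and 6.58 with control siRNA and 7.52, 7.63 and 7.40 with SLU7 siRNA. It lay higher in every knockdown array, by 0.81 ± 0.23 (limma adjusted p = 0.170). Groups thus lay apart in 2 of the 6 relatives, beside 18.9% of all clusters in either direction. CEBPB itself differed by -0.19 and CEBPA by -0.0049. HNF4G, the relative of HNF4A, differed by -0.29 ± 0.27, ONECUT2 by -0.42 ± 0.28, CEBPD by -0.36 ± 0.31 and CEBPE by -0.18 ± 0.33, all 4 with overlap between groups and named after their values were seen to complete the list.

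Among 21 measured of 23 other liver-enriched factors, HLF fell and 20 did not pass (0.433% of all clusters passed). Their median was -0.09 and 13 were below 0, beside 50.3% of all named genes. Groups lay apart in 8 of the 21 (5 lower and 3 higher, against 9.21% and 9.64% of all clusters). HLF, a circadian leucine zipper factor of the liver, had 9.31, 9.61 and 9.80 with control siRNA and 7.81, 7.95 and 8.13 with SLU7 siRNA. The gap between the groups was wider than the spread within either, and the difference was -1.61 ± 0.25 (SE) log2 units or 3.05-fold lower (limma adjusted p = 0.0485). Without any 1 array the adjusted p of HLF ran from 0.0762 to 0.203. ESRRA, the estrogen-related receptor alpha of mitochondrial metabolism, differed by -1.18 ± 0.31 (limma adjusted p = 0.139). NR1I2, the pregnane X receptor, differed by -1.09 ± 0.27 (limma adjusted p = 0.122), but stood at 2.27 to 3.93 log2 units in the 6 arrays, below their lower quartiles, so its size is uncertain. Of 15 measured of 16 cofactors and regulators none passed, with a median of -0.16. CITED2, a coactivator that binds CBP and p300, differed by -1.20 ± 0.28 (limma adjusted p = 0.105). NCOA3, a nuclear receptor coactivator, differed by -0.59 ± 0.26 (limma adjusted p = 0.388). MED1, a Mediator subunit, differed by 0.72 ± 0.26 (limma adjusted p = 0.287). These 3 were named because their groups did not overlap. That held for 5 of the 15 (3 lower and 2 higher, against 9.21% and 9.64% of all clusters).

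Textbook target genes of the factors were mostly below 0. Over the 3 target lists 38 genes were measured, of which 32 were below 0, beside 50.3% of all named genes. Their median was -0.64 log2 units beside -0.15 for the factors themselves, a gap that was not tested. Only PCK1, the gluconeogenic carboxykinase that stands in all 3 lists, fell by limma's test, beside 0.299% of all clusters. Its values were 8.54, 8.21 and 8.65 with control siRNA and 4.76, 5.98 and 5.99 with SLU7 siRNA, a difference of -2.89 ± 0.37 (SE) log2 units (limma adjusted p = 0.0371). Without any 1 array that adjusted p ran from 0.0591 to 0.180. These lists were drawn up with earlier results of these data known, so their direction is not independent evidence.

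Of 26 measured of 33 HNF4A targets, PCK1 fell and 25 did not pass, with 23 below 0 and a median of -0.60. LIPC, hepatic lipase, differed by -2.01 ± 0.53 (SE) log2 units (limma adjusted p = 0.146), and APOC3, an inhibitor of triglyceride clearance, by -1.73 ± 0.30 (limma adjusted p = 0.0526). In both the groups lay apart, as in 12 of the 26 genes (11 lower and 1 higher, against 9.21% and 9.64% of all clusters). Of 10 measured of 11 FOXA targets, all 10 were below 0, with a median of -0.66, and 9 did not pass. TTR (-0.062 ± 0.32) and TAT (-0.077 ± 0.27) lay well within their errors. Of the 10, only AFP and IGFBP1 are in no other target list, so the lists do not count separately. IGFBP1, the insulin-repressed IGF binding protein, had 14.19, 13.72 and 13.90 with control siRNA and 12.64, 12.92 and 12.93 with SLU7 siRNA, a difference of -1.11 ± 0.25 (limma adjusted p = 0.100), and APOA1 differed by -0.93 ± 0.28. Of 14 measured of 17 C/EBP targets, 10 were below 0, with a median of -0.42, and 13 did not pass. CPS1, the first enzyme of the urea cycle, differed by -1.39 ± 0.32 (limma adjusted p = 0.096) and ARG1, the last one, by -0.71 ± 0.35 at a level below the lower quartiles. Low signal limits these lists, since 9 of the 26, 4 of the 10 and 10 of the 14 genes had a mean below the lower quartiles.

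**Figure D4:**
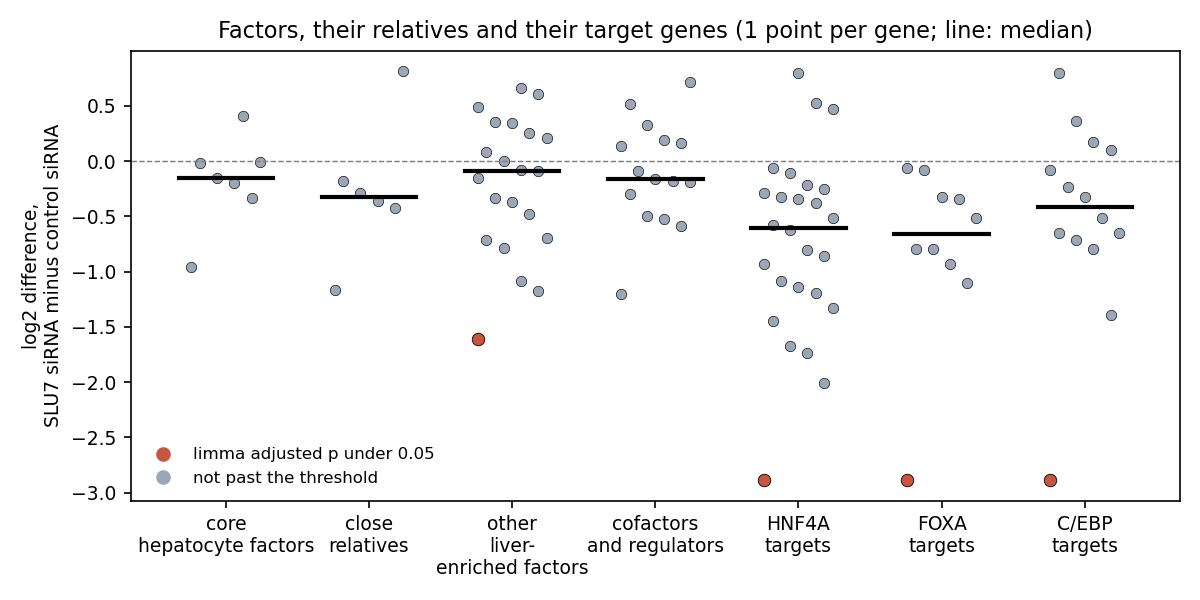
Log2 difference between SLU7 siRNA and control siRNA arrays (vertical axis) for each measured gene of 7 lists (1 point per gene, black line for the median, red for a limma adjusted p under 0.05). The factors and their relatives lie around medians of -0.15 and -0.32, the HNF4A, FOXA and C/EBP targets around -0.60, -0.66 and -0.42, and the red points are HLF and PCK1, the latter in 3 lists.

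Markers of hepatocytes and of other cell types were read beside these values. In the hepatocyte list 9 of 10 were below 0 (50.3% of all named genes), with a median of -0.55 and none called. All but FGA, FGB and FGG also stand in a target list above, so this list does not count separately. Its summed level was 13.3 to 13.5 with control siRNA and 12.7 to 12.9 with SLU7 siRNA. FGB, a fibrinogen chain, differed by -1.07 ± 0.40 (limma adjusted p = 0.303). AFP, alpha-fetoprotein, differed by -0.80 ± 0.32 (limma adjusted p = 0.337). Both were named because their groups lay apart. That held for 4 of the 10, all lower, against 9.21% of all clusters. Not all markers moved. The other fibrinogen chains, FGA (-0.0024 ± 0.27) and FGG (0.020 ± 0.36), and TTR (-0.062 ± 0.32), named after their values were seen, barely differed. Of 6 biliary markers 4 were below 0, with a summed level of 9.74 to 10.2 against 9.25 to 9.44 log2 units, so that the groups did not overlap. SOX9, the bile duct and progenitor factor, differed by -0.95 ± 0.25 (limma adjusted p = 0.137). It was the brightest of the 6, so it weighs most in that sum. It was also the 1 marker whose groups lay apart (18.9% of all clusters in either direction). KRT7 (0.68 ± 0.48) and CFTR (0.23 ± 0.27) lay above 0, and both of them and SPP1 had means below the lower quartiles. Blood markers (4 measured of 5) had a median of 0.13 and a summed level of 6.39 to 6.49 against 6.44 to 6.84. Stellate and fibroblast markers (7 of 7) had a median of 0.03 and a summed level of 9.09 to 9.62 against 9.25 to 9.35. None of these lists held a called gene. The cells were a tumour cell line, so the lists are read as levels in that line. Their relation to the members' values was not tested.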

How the data were processed

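Per the labels, the authors worked with aroma.affymetrix's core chip definition, and the submitters' processing notes name RMA, which corrects background, normalizes and summarises probes. The deposited values are 1 log2 value per transcript cluster, the log2 scale being read from their range. Which arrays were normalized together, the build and the annotation version: not given in the sources used here. Exon use can shift such a value without a change in total level.

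GEO's platform annotation gave the symbols (16287 of 18708 clusters with 1, 674 with several, 1747 with none), with 2179 brought up to date through the RefSeq table. Groups were compared with limma 3.58.1 (R 4.3.3), lmFit and eBayes, group as the only term, Benjamini-Hochberg over all clusters at 0.05. It was tried on 10 simulated sets with the observed means and spreads and 200 changed clusters. It recovered 0.6% of changes of 1 log2 unit and 45.1% of changes of 2 log2 units, with 1.7 false calls on average. The simulated noise was independent between clusters and held no array split, so these rates may differ from those of the real arrays. In either case a gene that did not pass is not shown to be unchanged. The median SE was 0.312 log2 units, and the number of arrays limits the precision. Same-numbered arrays did not deviate together (r = -0.381, -0.314 and 0.141), so the values gave no sign of pairing by number. These correlations also carry the array split, so they cannot settle whether the numbers pair the arrays.

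The members and lists were chosen with earlier results of these data known. Genes named outside the set were the called members of each list, then the largest differences without overlap between groups, up to 3 a list, and for each member the 2 genes with the highest Pearson r. Alternatives were a replicate block, median centring, quantile normalization, array weights, leaving out the dimmest 25% of clusters, eBayes with a trend and robust shrinkage, the mean of a gene's clusters, a threshold of 0.01 and leaving out each array. The array split, as a block or left out, was added after seeing the data.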

Additional observations from a re-analysis of the deposited data

How the results depend on the processing

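No member was called by limma under any of the 16 alternatives. In those where 0 clusters were called at all, given below, no member could have been, so they add no support. FOXA1, FOXA3, CEBPB, ONECUT1 and PROX1 kept their direction in all 16. Either block, leaving out the dimmest clusters, the intensity trend and the 0.01 threshold cannot move a member's difference. The mean of a gene's clusters cannot either, since each member had 1 cluster. The direction under those alternatives was fixed in advance and adds no support. Without any 1 array FOXA1 ran from 0.23 to 0.63, FOXA3 from -0.42 to -0.24, CEBPB from -0.25 to -0.12 and ONECUT1 from -0.27 to -0.023. The members' median ran from -0.19 to -0.023 without any 1 array and from -0.22 to -0.14 otherwise. PROX1 ran from -1.14 to -0.64 without any 1 array, and its adjusted p from 0.0523 (array split as a block, read off these arrays and so too small) to 0.491. FOXA2 ran from -0.19 to 0.22 without any 1 array, and was 0.054 with array weights and 0.080 without the arrays that stand apart. CEBPA ran from -0.095 to 0.091 without any 1 array, and was 0.0020 with median centring and 0.0010 without the arrays that stand apart. SLU7 passed at -1.51 log2 units without the dimmest clusters (adjusted p = 0.0411), with an intensity trend (0.0330) and with a block for the array split (0.0430), and at -1.61 with array weights (0.0269). Without any 1 array SLU7 ran from -1.69 to -1.25. The 81 called clusters became 324 without the dimmest clusters, 441 with an intensity trend, 575 with array weights and 783 with a block for the array split. They became 0 at a threshold of 0.01, 0 without the arrays that stand apart (2922 at an unadjusted p under 0.05) and 0 to 0 without any 1 array (1833 to 2573). With the replicate block, 0 clusters were called (1845 at an unadjusted p under 0.05), and the values gave no sign that the replicate numbers pair the samples. With that block PROX1 was -0.95 (adjusted p = 0.439). The cause of these changes was not tested. The precision of 3 arrays a group limits the members: the 95% interval of FOXA2 spans -0.69 to 0.66 and that of CEBPA -0.57 to 0.56 log2 units.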
